A study of Mus musculus with 4 samples.

Results

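The histone-modifying enzyme genes are those whose symbols start with Kdm (lysine demethylases), Kmt and Setd (lysine methyltransferases and related SET domain proteins), Kat (lysine acetyltransferases), Hdac (histone deacetylases) or Sirt (sirtuins), followed by a digit. The prefixes named 60 genes among the 18193 genes that had a probe set with a single symbol on the array. Each gene was read from its probe set with the highest mean over the 4 arrays, and it was kept if that probe set lay above the 60th percentile of all values on at least 1 array. That limit was a log2 signal of 6.80, a signal of 111. It kept 54 of the 60 genes, against 9865 of the 18193 named genes, and 47 of the 54 lay above it on all 4 arrays. The members were 15 of 18 Kdm genes, 8 of 8 Kmt genes, 7 of 8 Setd genes, 8 of 8 Kat genes, 9 of 11 Hdac genes and 7 of 7 Sirt genes. The genes left out were Kdm4b, Kdm4d, Kdm5d, Setd4, Hdac8 and Hdac11. Just inside the limit by their highest signal were Sirt4 at log2 6.90, Hdac9 at 6.94 and Hdac10 at 7.01, and just outside were Setd4 at 6.76, Kdm4b at 6.52 and Hdac8 at 6.50.

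The arrays profiled bone marrow neutrophils of C57BL/6 mice of 8 weeks, enriched on magnetic beads. The 4 groups were miR-125a-/- cells with LPS for 3 h, miR-125a+/+ cells with LPS for 3 h, miR-125a-/- cells without LPS and miR-125a+/+ cells without LPS. LPS is the outer membrane lipopolysaccharide of Gram-negative bacteria, which is sensed through Toll-like receptor 4. RNA of 3 independent experiments was pooled within each group and hybridised to 1 Affymetrix array. No value therefore has a replicate, the spread between the pooled experiments is not visible, and differences are given with no test; 1 array per group limits the precision. The labels mark the cells without LPS as 0 h in their titles but speak of stimulation without or with LPS elsewhere, so it is not settled whether they were cultured for the same time. The deletion is given as miR-125a-/- with no promoter or cell type, so it applies to the whole animal as far as the labels say.

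DNA in the nucleus is wound around histones, and enzymes add or remove methyl and acetyl groups on histone lysines. Acetyl groups placed by acetyltransferases and removed by deacetylases and sirtuins mark open, transcribed chromatin. Methyl groups have different meanings by position: H3K4 methylation marks promoters and enhancers in use, H3K36 methylation marks transcribed gene bodies, and H3K9, H3K27 and H4K20 methylation are tied mostly to silenced or compacted chromatin. Mature neutrophils have densely packed, lobed nuclei, and myeloid cells that meet LPS switch on many inflammatory genes, at many of which these marks are rewritten. Several of the enzymes also act on proteins outside chromatin, such as tubulin or subunits of the transcription factor NF-kB.

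The sequences below belong to the deleted microRNA and to the members that the results turn on. They are taken from RefSeq with the build GRCm38.p6, and each promoter window runs from 250 bases before to 50 bases after an annotated start, 5′ to 3′ on the gene's own strand. The mature strand of miR-125a comes from chr17:17830817-17830840 on the plus strand, and capitals mark its seed, bases 2 to 8. Kdm7a, at chr6:39206724-39207023 on the minus strand, and Kmt5a, at chr5:124439680-124439979 on the plus strand, are shown because they moved in opposite directions with LPS. Sirt6, at chr10:81627273-81627572 on the minus strand, and Sirt2, at chr7:28766502-28766801 on the plus strand, are shown because they were lower on both knockout arrays. In these windows capitals mark letters that match the NF-kB motif, searched on both strands.
miR-125a-5p: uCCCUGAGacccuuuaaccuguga
Kdm7a: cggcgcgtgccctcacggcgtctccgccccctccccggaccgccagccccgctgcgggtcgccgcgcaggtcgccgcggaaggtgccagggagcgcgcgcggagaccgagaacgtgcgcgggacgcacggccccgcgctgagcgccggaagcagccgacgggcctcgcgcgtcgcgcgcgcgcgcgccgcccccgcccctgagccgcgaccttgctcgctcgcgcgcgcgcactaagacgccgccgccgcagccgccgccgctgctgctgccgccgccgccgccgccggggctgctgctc
Kmt5a: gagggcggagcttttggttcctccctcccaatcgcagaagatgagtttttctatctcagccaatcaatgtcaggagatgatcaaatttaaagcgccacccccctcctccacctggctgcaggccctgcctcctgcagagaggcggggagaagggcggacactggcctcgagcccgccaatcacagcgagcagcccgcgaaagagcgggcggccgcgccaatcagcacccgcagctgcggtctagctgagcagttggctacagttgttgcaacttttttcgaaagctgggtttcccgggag
Sirt6: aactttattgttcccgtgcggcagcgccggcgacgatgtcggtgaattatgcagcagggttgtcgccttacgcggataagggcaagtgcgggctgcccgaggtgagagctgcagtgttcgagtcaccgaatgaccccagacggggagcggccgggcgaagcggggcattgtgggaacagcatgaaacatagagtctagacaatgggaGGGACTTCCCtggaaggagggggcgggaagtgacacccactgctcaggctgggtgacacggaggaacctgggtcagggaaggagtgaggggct
Sirt2: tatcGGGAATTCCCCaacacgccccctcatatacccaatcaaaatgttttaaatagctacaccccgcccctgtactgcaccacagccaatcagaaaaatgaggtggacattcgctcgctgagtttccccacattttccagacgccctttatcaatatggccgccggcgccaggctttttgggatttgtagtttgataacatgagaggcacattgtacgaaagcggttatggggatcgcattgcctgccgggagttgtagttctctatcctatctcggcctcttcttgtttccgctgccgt
Kdm7a and Kmt5a have no capitals because none of the searched motifs was found in these windows, which says nothing about the binding of any factor. The Kdm7a window held 82.7% G and C with 65 CpG dinucleotides, and the Kmt5a window held 59.7% with 18. Kmt5a and Sirt6 each have further annotated starts, whose windows are not shown. None of the searched motifs was found in those windows. The NF-kB match of Sirt6 thus holds for the window shown and not for its window at chr10:81627517-81627816.

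Between 37.8% and 41.5% of the 45101 probe sets lay above the limit on each array. The 3′ minus 5′ log2 signal of the control probe sets ranged from -0.12 to 0.01 for Gapdh and from 0.16 to 0.23 for actin. No probe set carried the symbol of the deleted microRNA, and its host gene Spaca6 reached at most log2 6.24, below the limit, so the arrays do not check the deletion. All 11 named neutrophil markers, such as S100a8 and Ly6g, lay above the limit on every array. Their summed signal was 377521 in knockout and 330281 in wild-type cells with LPS, and 335090 in knockout and 303807 in wild-type cells without LPS. Monocyte and macrophage markers were also present, 9 or 10 of 10 per array. With LPS their sums were 50290 in knockout and 52214 in wild-type cells, and without it 30546 in knockout and 30378 in wild-type cells. The single markers did not share 1 direction. In both genotypes 4 of the 10 were at least 2-fold higher with LPS and 3 lower, where 5.57% and 5.89% of all genes were. All 7 cell cycle genes were above the limit on all arrays. Of the B cell markers 1 of 4 was above the limit on any array, of the T and NK cell markers 1 of 4, and of the progenitor markers between 1 and 3 of 5 per array; no marker of any list was listed at 0. In a mixed preparation, fewer cells of a type and less RNA per cell cannot be told apart.

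The plot of all signals gives each member on the 4 arrays. Reported log2 signals ran from 1.57 to 13.61, values that come from different probe sets and so do not rank the genes. The 7 members that dropped below the limit on some array were Kdm1b, Setd6, Hdac9, Hdac10, Sirt4, Sirt5 and Sirt6. A value below the limit was set to it, so a difference with 1 such side is a bound, and differences with both sides below it are not given.

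**Figure D1:**
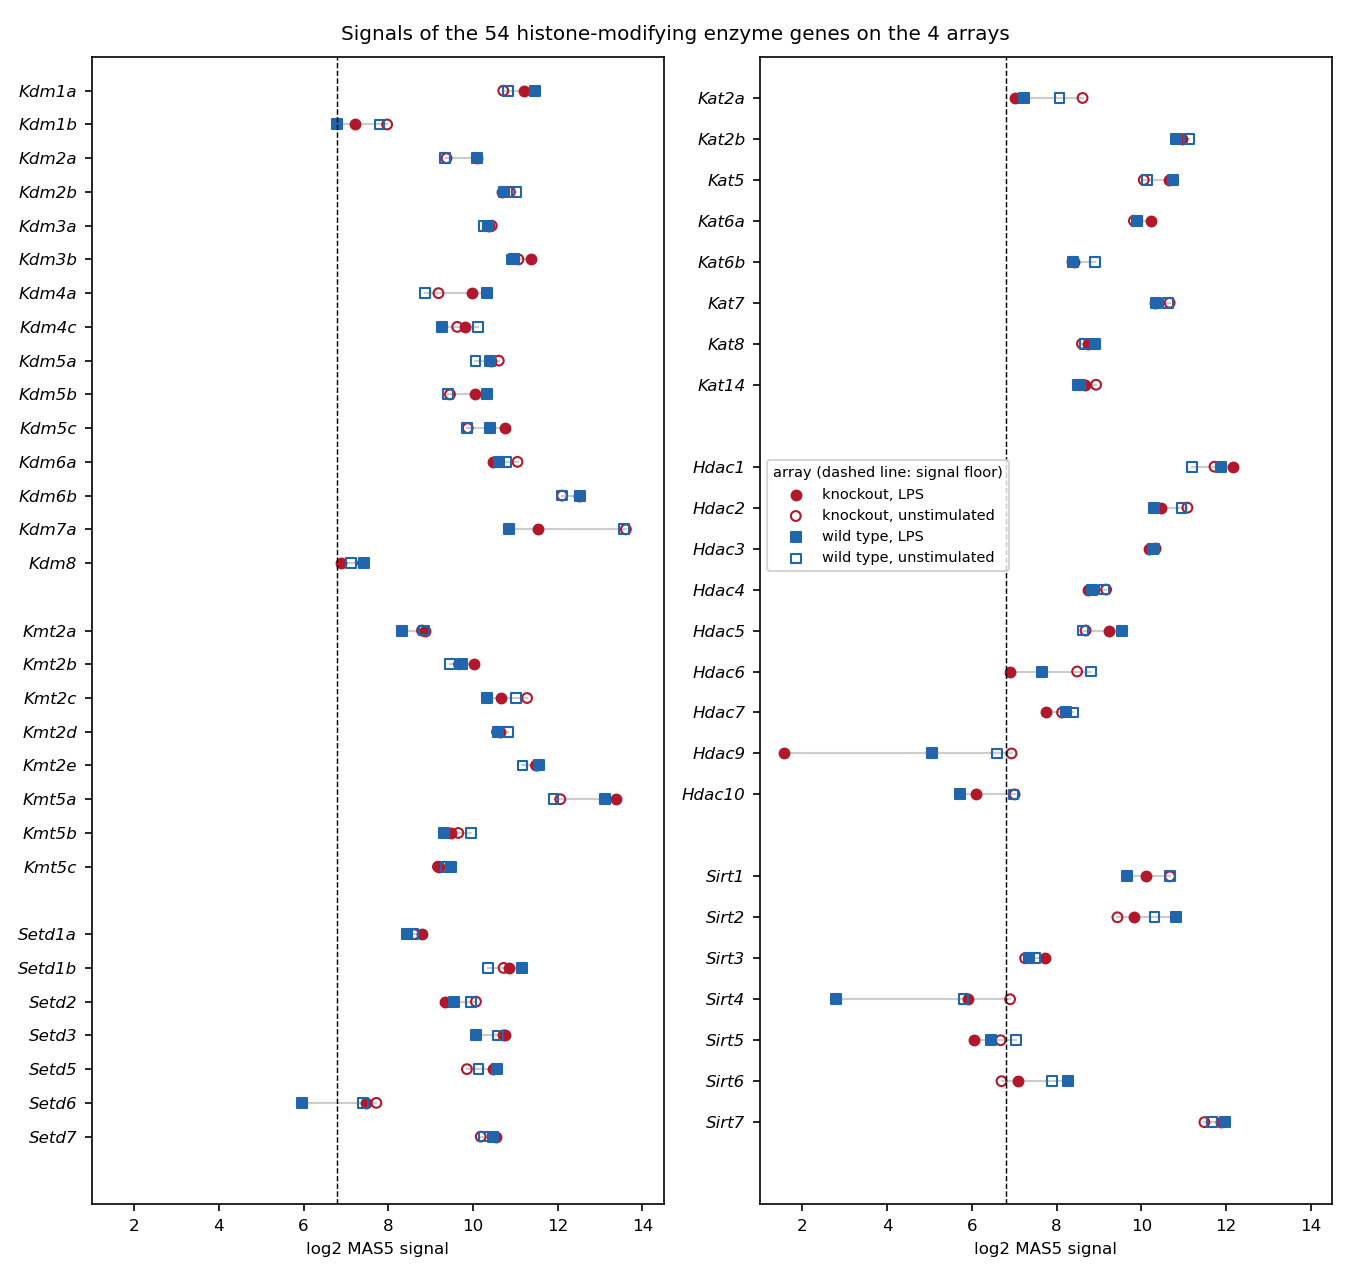
Log2 MAS5 signal (x axis) of each of the 54 enzyme genes (rows, grouped by family) on the 4 arrays; filled symbols are LPS arrays, open symbols unstimulated arrays, circles knockout and squares wild type, and the dashed line is the limit at log2 6.80. The widest spreads above the limit are those of Kdm7a, Hdac6, Kat2a and Kmt5a, where LPS and unstimulated arrays separate, and Sirt2 and Sirt6 separate by genotype.

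The first comparison asked which enzyme genes differed between LPS-stimulated and unstimulated cells of each genotype. Kdm7a, which removes methyl groups from H3K9 and H3K27, and Hdac6, a mainly cytosolic deacetylase, were at least 2-fold lower with LPS in both genotypes. Kmt5a, the enzyme that places the first methyl group on H4K20, was at least 2-fold higher in both. In knockout cells 1 of 53 measured members was higher by at least 2-fold and 3 were lower, where 6.62% and 7.99% of all measured genes were. In wild-type cells 2 of 52 were higher and 3 lower, where 7.29% and 9.69% of all measured genes were. Taking both directions together, 14.6% of all genes in knockout and 17.0% in wild-type cells differed at least 2-fold, so the 4 of 53 and 5 of 52 members are not more than the array as a whole gave. In both genotypes 1 of 51 members was higher and 2 were lower, against 5.57% and 5.89% of all genes, 11.5% together.

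The members' median LPS difference was 0.03 in knockout and -0.05 in wild-type cells on the log2 scale, and that of all genes was -0.05 in knockout and -0.03 in wild-type cells. Without regard to sign, the members' median difference was 0.38 in knockout and 0.41 in wild-type cells, beside 0.39 in knockout and 0.42 in wild-type cells for all genes. The split into higher and lower members depended on the scaling of the arrays. In wild-type cells it was 4 higher and 1 lower after quantile normalization. Median scaling gave 6 higher and 1 lower, and the scale set by the poly-A control RNAs added to each sample gave 0 higher and 12 lower. The split over all genes moved likewise, with 693 higher and 921 lower in wild-type cells as deposited, 837 and 706 after quantile normalization, and 1030 and 620 with medians set equal. With the poly-A controls it was 348 and 2271. In knockout cells all genes split into 634 higher and 765 lower as deposited and 324 and 2385 on the poly-A scale, where 0 members were higher and 9 lower.

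At a lower limit of 1.5-fold, 6 members were higher and 7 lower in knockout cells, where 13.8% and 19.2% of all genes were, 33.0% together. In wild-type cells 9 were higher and 10 lower, where 15.8% and 21.0% of all genes were, 36.8% together. Kmt5a, Kdm4a, Kdm2a and Kat5 were higher by at least 1.5-fold in both genotypes, and Kdm7a, Hdac6, Kat2a, Kdm1b, Kmt2c and Hdac2 were lower in both, where 10.6% of all genes were higher and 14.9% lower in both, 25.5% together. Over the 47 members above the limit on all arrays, the LPS differences of the genotypes correlated with r = 0.827 (Spearman's rho 0.784), and with r = 0.768 without Kdm7a. These points are genes, not replicates, and the arrays share their scaling. The same correlation over 8156 genes was r = 0.894. The differences had the same sign for 35 of the 47 members (74.5%), against 82.4% of all these genes.

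**Figure D2:**
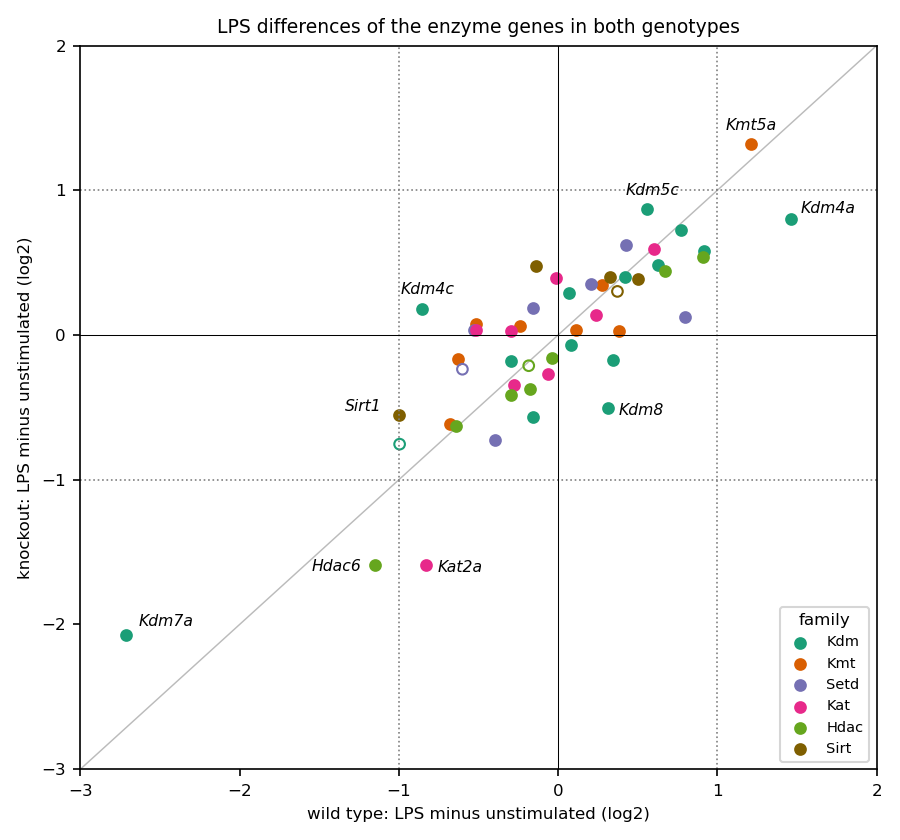
LPS minus unstimulated log2 signal of the enzyme genes in knockout (y axis) against wild-type cells (x axis); colours give the family, open points are genes below the limit on some array, dotted lines mark 2-fold and the grey line equal differences. Kdm7a and Hdac6 lie beyond 2-fold in the lower left, Kmt5a beyond it in the upper right, and Kdm4c and Kdm8 have opposite signs on the axes.

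Among demethylases, Kdm7a had log2 signals of 11.54 in knockout and 10.86 in wild-type cells with LPS, against 13.61 in knockout and 13.57 in wild-type cells without LPS. Both LPS arrays lay below both unstimulated arrays, and the unstimulated arrays were close to each other. The difference was -2.07 in knockout cells, 4.20-fold lower, and -2.71 in wild-type cells, 6.55-fold lower. The next brightest probe set differed by -1.90 in knockout and -2.44 in wild-type cells, and another by -1.38 in knockout and -1.49 in wild-type cells. The remaining 2 probe sets of Kdm7a lay below the limit on every array, and a mean over all its probe sets put the wild-type difference at -0.67. The other demethylases of H3K27 were not called on their reported probe sets. Kdm6b, which removes trimethylation of H3K27 and is known in macrophages as an LPS-induced gene, had 12.51 in knockout and 12.52 in wild-type cells with LPS, against 12.10 in knockout and 12.10 in wild-type cells without it. Its LPS difference was 0.40 in knockout and 0.42 in wild-type cells, under 1.5-fold in both. Kdm6a, its X-linked relative, differed by -0.57 in knockout and -0.16 in wild-type cells, and on a second probe set by -0.10 in knockout and -0.56 in wild-type cells.

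Kdm4a, a demethylase of trimethylated H3K9 and H3K36, had log2 signals of 9.98 in knockout and 10.33 in wild-type cells with LPS, against 9.19 in knockout and 8.87 in wild-type cells without LPS. Both LPS arrays were above both unstimulated arrays. The difference was 0.80 in knockout cells, 1.74-fold, and 1.46 in wild-type cells, 2.75-fold. The other probe set of Kdm4a lay below the limit on all arrays, and averaging both sets turned the wild-type difference to -0.15. Kdm4c, a close relative with the same substrates, had 9.81 in knockout and 9.26 in wild-type cells with LPS, against 9.63 in knockout and 10.11 in wild-type cells without LPS. The wild-type arrays were the highest and the lowest of the 4, with the knockout arrays between them. Kdm8, a JmjC protein first described as acting on H3K36, had 6.89 in knockout and 7.44 in wild-type cells with LPS, against 7.40 in knockout and 7.12 in wild-type cells without LPS, all close to the limit.

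The H3K4 demethylases gave 0 calls at 2-fold among 5 members in either genotype, where 14.6% of all genes in knockout and 17.0% in wild-type cells were called. With 5 members these counts do not set them apart from all genes. Kdm1a, which takes mono- and dimethylation off H3K4, differed by 0.48 in knockout and 0.63 in wild-type cells, and on a second probe set by -0.05 in knockout and 0.46 in wild-type cells. Its relative Kdm1b was lower by 0.75 in knockout cells, 1.69-fold, and at least 1.99-fold in wild-type cells, where the LPS array was below the limit; that bound fell just short of the call. Among the demethylases of trimethylated H3K4, Kdm5b differed by 0.58 in knockout and 0.91 in wild-type cells and Kdm5c by 0.87 in knockout and 0.55 in wild-type cells. A second Kdm5b set gave 0.13 in knockout and -0.21 in wild-type cells. Of 5 further Kdm5c sets above the limit on all arrays, 2 were higher with LPS in both genotypes and 3 were lower in both, from -0.83 to 0.97 in knockout and from -0.63 to 0.77 in wild-type cells. The direction of these genes thus depends on the probe set read. Kdm2a, which binds CpG islands and demethylates H3K36, differed by 0.73 in knockout and 0.77 in wild-type cells. Its 2 further probe sets above the limit on all arrays did not share 1 direction. They gave -0.26 in knockout and -0.55 in wild-type cells, and 0.13 in knockout and 0.40 in wild-type cells.

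Among methyltransferases, Kmt5a had log2 signals of 13.38 in knockout and 13.11 in wild-type cells with LPS, against 12.06 in knockout and 11.90 in wild-type cells without LPS. Both LPS arrays lay above both unstimulated arrays. The difference was 1.32 in knockout cells, 2.49-fold, and 1.21 in wild-type cells, 2.31-fold. A second probe set differed by 0.98 in knockout and 1.0 in wild-type cells, and the other 2 lay below the limit on all arrays. A mean over all its probe sets gave 0.37 in knockout and 0.89 in wild-type cells, both short of the call. The poly-A scale gave 0.75 in knockout and 0.67 in wild-type cells, but relative to the median of all genes 1.32 in knockout and 1.19 in wild-type cells. Kmt5b and Kmt5c, which add further methyl groups to H4K20 after Kmt5a, were not called on their reported probe sets. Kmt5b differed by -0.17 in knockout and -0.63 in wild-type cells, but another of its probe sets went the other way, by 0.74 in knockout and 0.69 in wild-type cells, and another gave -0.02 in knockout and -0.43 in wild-type cells. Kmt5c differed by 0.03 in knockout and 0.11 in wild-type cells. The 7 cell cycle genes, with which Kmt5a protein is known to vary, had a median LPS difference of -0.18 in knockout and -0.21 in wild-type cells.

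None of the 8 H3K4 methyltransferases was called in either genotype, where 0 of 8 stands beside the background shares given above. Kmt2c, which marks enhancers, had 10.66 in knockout and 10.33 in wild-type cells with LPS, against 11.28 in knockout and 11.01 in wild-type cells without LPS. Both LPS arrays were lower, by 0.62 in knockout and 0.68 in wild-type cells. Its 3 further sets above the limit on all arrays gave -0.50, -0.52 and 0.56 in knockout cells, and -1.0, -0.85 and -0.89 in wild-type cells. Setd1b, of the complex that methylates H3K4 at promoters, had 10.84 in knockout and 11.15 in wild-type cells with LPS, against 10.72 in knockout and 10.35 in wild-type cells without it. The LPS arrays were again both on the same side, but by 0.12 in knockout and 0.80 in wild-type cells, and on a second set by 0.34 in knockout and 0.79 in wild-type cells. Kmt2a, the founding member of the mixed-lineage leukaemia family, had 8.87 in knockout and 8.33 in wild-type cells with LPS, against 8.80 in knockout and 8.84 in wild-type cells without LPS; only the wild-type LPS array stood apart, and a second set gave 0.13 in knockout and -0.26 in wild-type cells.

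Of the remaining SET domain genes, Setd2, which places trimethylation on H3K36, had 9.34 in knockout and 9.55 in wild-type cells with LPS, against 10.07 in knockout and 9.95 in wild-type cells without LPS, a difference of -0.72 in knockout and -0.40 in wild-type cells. Setd5, a SET domain protein tied to deacetylase complexes, had 10.48 in knockout and 10.56 in wild-type cells with LPS, against 9.86 in knockout and 10.13 in wild-type cells without LPS. In both genes the LPS arrays lay together on one side of the unstimulated arrays, though a second Setd5 set gave 0.11 in knockout and -0.11 in wild-type cells. Setd6, which is known to methylate the RelA subunit of NF-kB, had 7.48 in knockout and 5.96 in wild-type cells with LPS, against 7.72 in knockout and 7.40 in wild-type cells without LPS. Only the wild-type LPS array was below the limit, which makes its difference from the unstimulated array at least 0.60 downwards. Another Setd6 probe set was below the limit on both LPS arrays, and lower with LPS by at least 0.55 in knockout and 0.55 in wild-type cells.

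Of 8 acetyltransferases 1 was called in knockout cells, where 14.6% of all genes were, and 0 in wild-type cells, where 17.0% were. Kat2a, the catalytic subunit of the SAGA and ATAC complexes, had log2 signals of 7.02 in knockout and 7.24 in wild-type cells with LPS, against 8.61 in knockout and 8.07 in wild-type cells without LPS. Both LPS arrays were lower and near the limit, by 1.59 in knockout cells, 3.02-fold, and by 0.83 in wild-type cells, 1.78-fold. The 2 further probe sets of Kat2a lay near or below the limit, at log2 signals between 5.51 and 7.45, and a mean over the 3 gave -0.87 in knockout cells. With the limit at the 75th percentile the knockout difference was -0.07, a bound. Its paralogue Kat2b had 10.95 in knockout and 10.82 in wild-type cells with LPS, against 10.92 in knockout and 11.12 in wild-type cells without LPS. Kat5, the catalytic subunit of the NuA4 complex, had 10.65 in knockout and 10.74 in wild-type cells with LPS, against 10.06 in knockout and 10.14 in wild-type cells without LPS. Its difference was 0.59 in knockout and 0.60 in wild-type cells, and a second probe set gave 0.26 in knockout and 0.42 in wild-type cells. Of the other MYST enzymes, Kat6a, Kat6b, Kat7 and Kat8, none reached 1.5-fold in either genotype.

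Among classical deacetylases, Hdac6, which removes acetyl groups from tubulin, had log2 signals of 6.90 in knockout and 7.66 in wild-type cells with LPS, against 8.48 in knockout and 8.82 in wild-type cells without LPS on its single probe set. Both LPS arrays were below both unstimulated arrays, and the knockout LPS array lay just above the limit. The difference was -1.59 in knockout cells, 3.01-fold lower, and -1.15 in wild-type cells, 2.22-fold lower. The wild-type difference was -0.85 after quantile normalization and -0.28, a bound, with the limit at the 75th percentile, both short of the call. Median scaling gave -0.91, but relative to the median of all genes the value was -1.10 under it and -1.12 as deposited. After quantile normalization it was -0.92 relative to that median, still short of the call. The erythroid markers were also lower with LPS. Their summed signal over 7 genes was 1119 in knockout and 1176 in wild-type cells with LPS, against 4128 in knockout and 2413 in wild-type cells without LPS, with 2 markers in knockout and 1 in wild-type cells above the limit with LPS and 5 in knockout and 4 in wild-type cells without it. Hba-a1 and Alas2 were below the limit on every array. The part of these cells in the Hdac6 and Kat2a values was not tested.

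Of the class I enzymes, the nuclear deacetylases of repressor complexes, Hdac1 had 12.17 in knockout and 11.87 in wild-type cells with LPS, against 11.73 in knockout and 11.20 in wild-type cells without LPS. Hdac2 went the other way, by -0.63 in knockout and -0.64 in wild-type cells, and a second probe set gave -0.51 in knockout and -0.82 in wild-type cells. Hdac3, the enzyme of the NCoR and SMRT complexes, differed by -0.16 in knockout and -0.04 in wild-type cells. Among class IIa enzymes, which bind Mef2 factors and shuttle between nucleus and cytosol, Hdac5 had 9.23 in knockout and 9.53 in wild-type cells with LPS, against 8.68 in knockout and 8.62 in wild-type cells without LPS. Its LPS arrays were both higher, by 0.54 in knockout and 0.91 in wild-type cells. Hdac9 was above the limit only on the unstimulated knockout array, at log2 6.94, so it gives bounds alone.

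Sirtuins are deacylases that need NAD+. Sirt1, a nuclear enzyme with histones and RelA among its known substrates, had log2 signals of 10.12 in knockout and 9.67 in wild-type cells with LPS, against 10.67 in knockout and 10.67 in wild-type cells without LPS. Both LPS arrays were lower, by 0.55 in knockout cells, 1.47-fold, and by 1.0 in wild-type cells, 2.0-fold, on the edge of the call; relative to the median of all genes it was -0.97 as deposited, -0.97 after quantile normalization and -0.95 after median scaling. Sirt7, found mainly in nucleoli, had 11.89 in knockout and 11.98 in wild-type cells with LPS, against 11.49 in knockout and 11.66 in wild-type cells without LPS. Of the mitochondrial sirtuins, Sirt4 was above the limit on 1 array, at log2 6.90 in unstimulated knockout cells, and Sirt5 on 1 array as well.

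The second comparison set miR-125a-/- against miR-125a+/+ cells. Sirt6, a chromatin-bound sirtuin that deacetylates H3K9 and is known to curb NF-kB target genes, was the only member that differed at least 2-fold, and it was lower in knockout cells with and without LPS. It was 1 of 50 members measured with LPS, where 0.626% of all genes were that much lower and 0.615% higher, 1.24% together. It was 1 of 54 without LPS, where 0.660% of all genes were lower and 0.351% higher, 1.01% together. In both states 1 of 50 was lower, where 0.216% of all genes were lower and 0.114% higher, 0.330% together. Sirt6 had log2 signals of 7.10 in knockout and 8.27 in wild-type cells with LPS, and 6.70 in knockout and 7.89 in wild-type cells without LPS on its single probe set. Both knockout arrays were lower than both wild-type arrays and close to the limit, the unstimulated one below it. The difference was -1.17 with LPS, 2.25-fold lower in knockout cells, and at least 2.14-fold lower without LPS. After quantile normalization the difference without LPS was -0.94 and not called, and with the limit at the 75th percentile Sirt6 was no longer measured.

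Sirt2, a largely cytosolic sirtuin that deacetylates tubulin and, in dividing cells, H4K16, followed the same order. Its log2 signals were 9.82 in knockout and 10.82 in wild-type cells with LPS, and 9.44 in knockout and 10.31 in wild-type cells without LPS on its single probe set. Both knockout arrays lay below both wild-type arrays and well above the limit. The difference was -0.99 with LPS, 1.99-fold, and -0.88 without LPS, 1.84-fold, both short of the call. No other member was at least 1.5-fold apart in the same direction in both states, where 0.602% of all genes were higher and 0.739% lower, 1.34% together. Markers of eosinophils, basophils and mast cells were lower in knockout cells too. Their summed signal over 7 genes was 1576 in knockout and 3652 in wild-type cells with LPS, and 1953 in knockout and 4275 in wild-type cells without LPS. With LPS 2 markers in knockout and 5 in wild-type cells lay above the limit, and without it 4 in knockout and 5 in wild-type cells. The part of these cells in the Sirt6 and Sirt2 values was not tested.

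Over all members the genotypes had a median difference of 0.01 with LPS and 0.03 without LPS, beside -0.01 with LPS and 0.00 without LPS over all genes. Without regard to sign the median was 0.27 with LPS and 0.17 without it, beside 0.19 with LPS and 0.16 without it over all genes. The members' value with LPS was about the size of the median gap between probe sets of the same member, 0.27. With 1 array per group it does not set the members apart from all genes. With LPS, Kdm7a, Setd3 and Setd6 were higher in knockout cells by at least 1.5-fold and Hdac6, Sirt2 and Sirt6 lower, 6 of 50 measured members. Of all genes 4.42% were higher and 3.23% lower, 7.64% together. Without LPS only Sirt2 and Sirt6 of 54 members were at least 1.5-fold apart, both lower in knockout cells. Of all genes 2.83% were higher and 3.00% lower, 5.83% together. Setd3, known as a methyltransferase of actin, was higher by 0.69 in knockout cells with LPS, and by 0.41 on its second probe set. Kdm7a was higher by 0.68, and by 0.57 and 0.10 on its further probe sets above the limit. The Setd6 value is a bound, since its wild-type LPS array was below the limit. Another Setd6 probe set was below the limit on both LPS arrays and gave no genotype difference there. Over 47 members the genotype differences with and without LPS correlated with r = 0.202 (rho 0.04) and shared their sign in 24 (51.1%). Over 8156 genes r was 0.261 (rho 0.204), and 56.9% shared their sign.

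**Figure D3:**
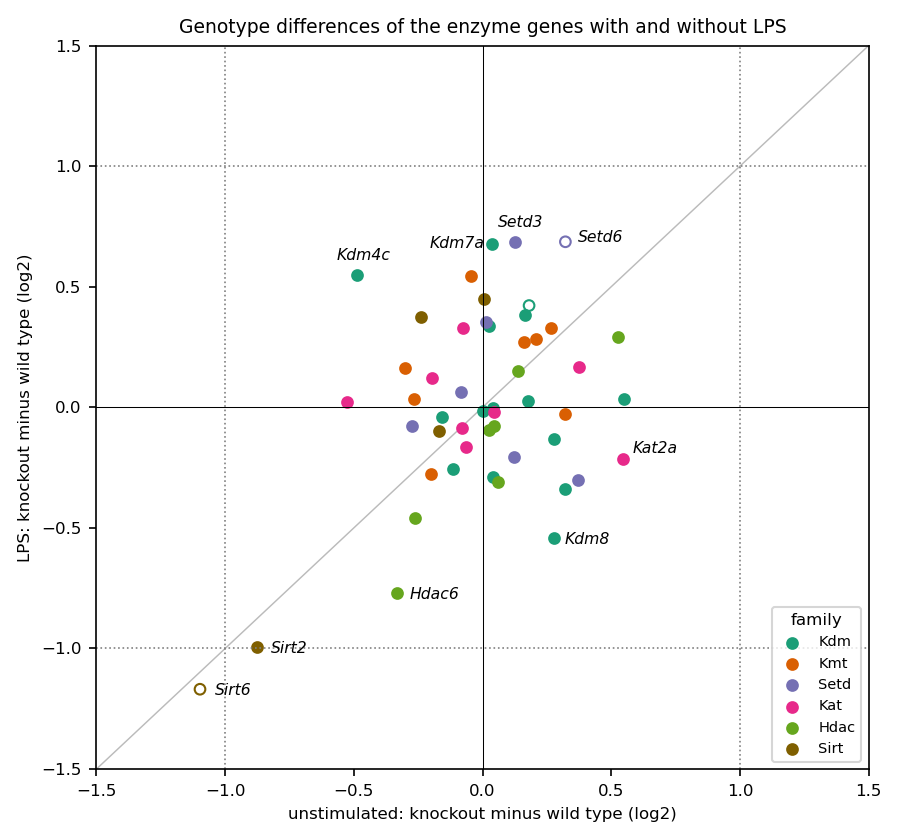
Knockout minus wild-type log2 signal of the enzyme genes with LPS (y axis) against without LPS (x axis); colours give the family, open points are genes below the limit on some array, dotted lines mark 2-fold and the grey line equal differences. Sirt6 lies beyond 2-fold on both axes and Sirt2 just short of it, and most other genes gather around 0 in no common direction.

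The last comparison set the LPS difference of knockout cells against that of wild-type cells. Kdm4c was the only member of 54 whose responses lay at least 2-fold apart, where 1.23% of all genes were in that direction and 0.872% in the other, 2.10% together. Its LPS difference was 0.18 in knockout and -0.86 in wild-type cells, so the responses differed by 1.04. Median scaling gave 0.90, but it moved all genes alike, and relative to the median of all genes the value was 1.04 under it and 1.05 as deposited. Between 1.5-fold and 2-fold apart were Kdm7a (0.64), Sirt3 (0.61) and Kmt2a (0.59) on the positive side, and Kdm8 (-0.82), Kat2a (-0.76), Setd1b (-0.67) and Kdm4a (-0.66) on the negative side. With Kdm4c these were 8 of 54 members, 4 in each direction, where 6.41% of all genes were on the positive and 5.24% on the negative side, 11.6% together. For Kdm7a, Kat2a, Setd1b and Kdm4a both genotypes went the same way and differed in size. The members' median difference between responses was -0.02, and that of all genes was -0.01.

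The reliability of single values can be judged from genes with several probe sets. Of the 54 members 18 had 1 probe set and 36 had several, up to 9. For 23 members further probe sets, 36 in all, lay above the limit on all arrays. Among these, 24 sets in knockout and 23 in wild-type cells had the sign of the reported set for the LPS difference, and for genotype 23 had it with LPS and 18 without. The median gap from the reported set was 0.37 in knockout and 0.30 in wild-type cells for LPS, and 0.27 with LPS and 0.20 without LPS for genotype, on the log2 scale. The largest gaps were 1.70 in knockout cells, in Kdm5c, and 1.32 in wild-type cells, in Kmt5b, for LPS. Without regard to sign, the members' median difference was 0.38 in knockout and 0.41 in wild-type cells for LPS. For genotype it was 0.27 with LPS and 0.17 without LPS. The gaps between probe sets were thus about as large as the genotype differences and as the LPS differences in knockout cells. For LPS in wild-type cells the gap was smaller, 0.30 against 0.41. Of the members called, Kdm7a and Kmt5a had a second probe set above the limit on all arrays, and Hdac6, Sirt1, Sirt6 and Kdm4c had 1 probe set.

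**Figure D4:**
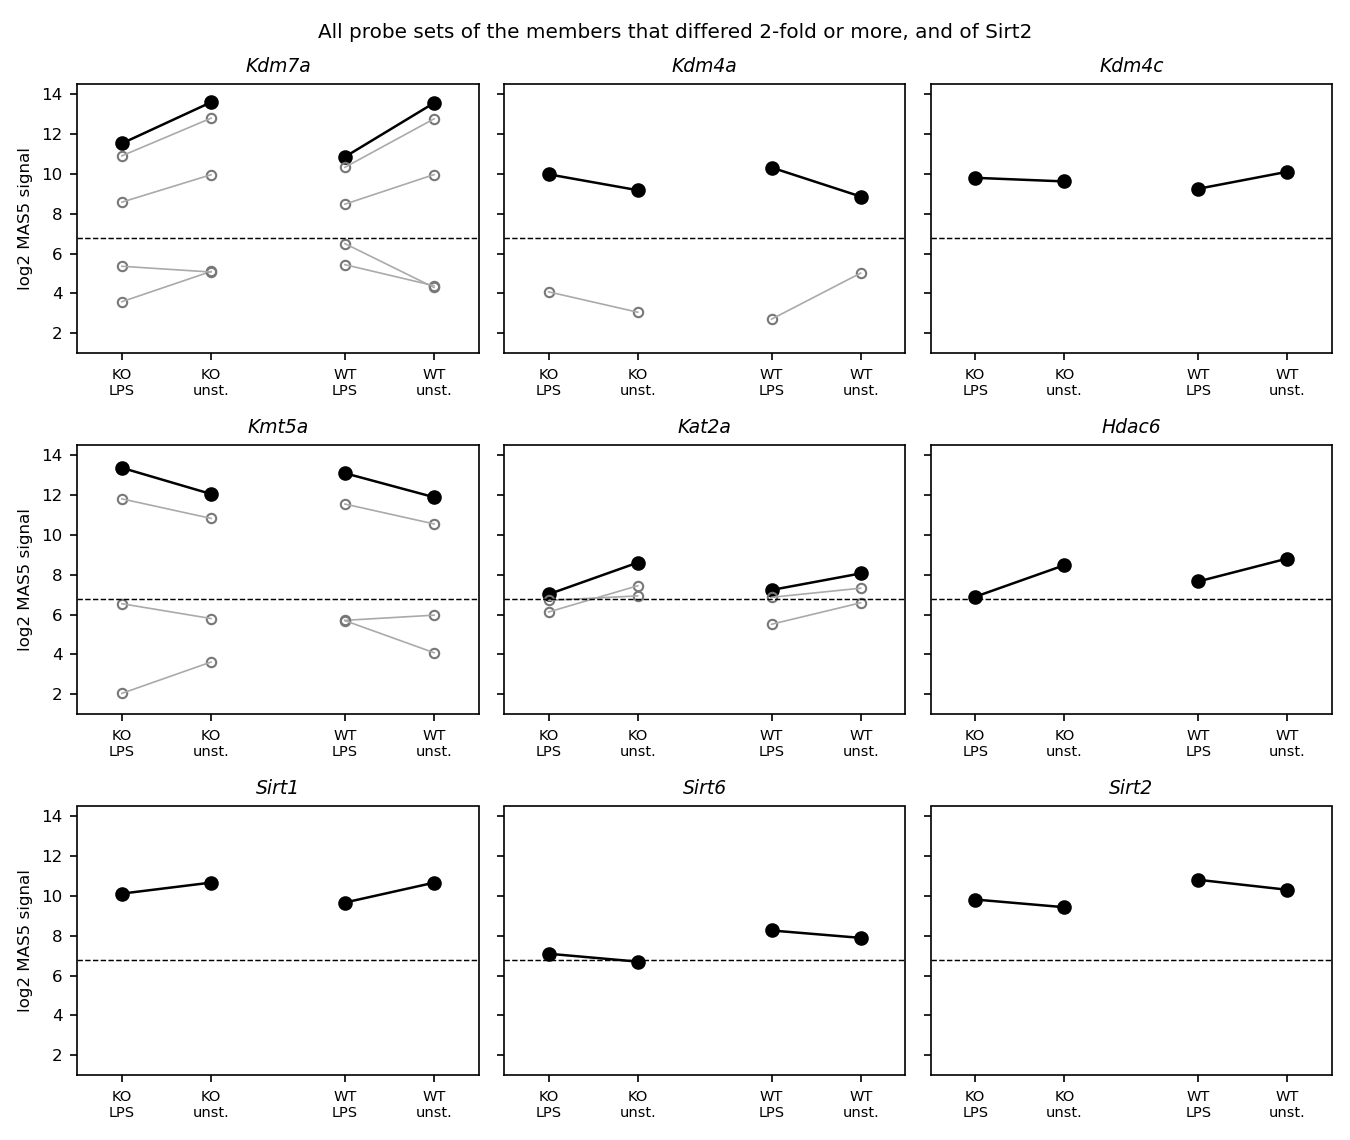
Log2 MAS5 signal (y axis) of every single-symbol probe set of the members that differed at least 2-fold, and of Sirt2, on the 4 arrays (x axis, knockout left of wild type, LPS left of unstimulated); black points are the reported probe sets, grey open points the others, and the dashed line is the limit. The 3 bright sets of Kdm7a and the 2 bright sets of Kmt5a run in parallel, while the other sets of Kdm4a and Kat2a lie near or below the limit.

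Other chromatin genes give a frame for these values. Their counts stand beside the 14.6% of all genes in knockout and 17.0% in wild-type cells that were called with LPS. In 10 acetyltransferases outside the prefixes, 0 were called in either genotype; among them the coactivator Ep300 differed by 0.08 in knockout and -0.12 in wild-type cells and its paralogue Crebbp by 0.16 in knockout and 0.29 in wild-type cells. Of the lysine methyltransferases outside the prefixes, 0 were higher and 1 of 17 lower in knockout cells and 0 higher and 2 of 16 lower in wild-type cells. Smyd2, which methylates H3K36 and p53, was lower in both, by 1.46 in knockout and by 1.44 in wild-type cells. Among other JmjC proteins 1 was higher and 1 lower, of 9 in knockout and of 10 in wild-type cells. They were Phf8, a demethylase of H3K9 and H4K20 from the same subfamily as Kdm7a, with 1.05 in knockout and 1.38 in wild-type cells, and Jmjd1c, of the Kdm3 subfamily, with -1.78 in knockout and -1.85 in wild-type cells. Arginine methyltransferases were lower in 1 of 7 in knockout and 1 of 8 in wild-type cells, and higher in 0.

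Of the 13 subunits of the COMPASS and MLL complexes, in which the Kmt2 and Setd1 enzymes work, 0 were higher and 1 lower in knockout cells and 1 higher and 1 lower in wild-type cells. Bod1l, a subunit of the Setd1a complex, was lower in both, by 1.39 in knockout and by 1.75 in wild-type cells. Of 20 Polycomb subunits, 1 was higher and 0 lower in knockout cells and 0 higher and 4 lower in wild-type cells, beside the background shares given for LPS. All 5 had the same sign in both genotypes, and are named here after their values were seen. They were Suz12 (-0.72 in knockout and -1.37 in wild-type cells), Phf1 (-0.63 in knockout and -1.45 in wild-type cells), Pcgf6 (-0.39 in knockout and -1.0 in wild-type cells), Yaf2 (-0.59 in knockout and -1.0 in wild-type cells) and Pcgf3 (1.48 in knockout and 0.86 in wild-type cells). Ezh2, the H3K27 methyltransferase, differed by -0.10 in knockout and -0.26 in wild-type cells. Among deacetylase corepressor subunits 1 was higher and 2 lower of 26 in knockout cells, and 1 higher and 4 lower of 25 in wild-type cells. Ing2 and Arid4b, subunits of Sin3 complexes that hold Hdac1 and Hdac2, were lower in both genotypes. Ing2 differed by -1.62 in knockout and -1.54 in wild-type cells, and Arid4b by -1.34 in knockout and -1.60 in wild-type cells. Of 28 acetyltransferase complex subunits, 2 were higher and 0 lower in knockout cells and 2 higher and 1 lower in wild-type cells. Jade2, a subunit of the Kat7 complex, was higher in both, by 2.97 in knockout and by 2.42 in wild-type cells. Of 10 readers of acetylated lysine, 0 were called in knockout cells and 1 was lower in wild-type cells. Of 12 LPS response genes such as Tnf and Il6, a list chosen for its response to LPS, 10 were higher in knockout and 11 in wild-type cells. Their median was 2.97 in knockout and 2.96 in wild-type cells. Between the genotypes 1 gene of all these lists was called, Suv39h2, a methyltransferase of H3K9, which was below the limit on the unstimulated knockout array and lower there by at least 1.22.

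Most members with a promoter window had at least 1 window rich in CpG, a feature that the choice of symbols did not use. A promoter window was found for 43 of the 54 members. Of these, 37 (86.0%) had at least 1 window with 50% or more G and C and an observed over expected CpG ratio of 0.6 or more, against 9717 of all 27025 genes with a window. The members had passed a signal limit, and the 27025 genes were taken whatever their signal. The 43 members had 63 windows, and the 27025 genes had 32851. Both limits hold for the motif shares below too, and their part in the shares was not tested. The median G and C content was 61.3% over the members' windows and 52.7% over all windows. The NF-kB motif was found in 3 members, Kdm2b, Sirt2 and Sirt6 (6.98%), and in 5.14% of all genes. The AP-1 motif TGANTCA was found in 7 members (16.3%) and in 8.97% of all genes, the E-box CACGTG in 5 (11.6%) and in 8.09%, the interferon response core, TTTC, any 2 bases and TTTC, in 1 (2.33%) and in 3.99%, and the cyclic AMP element TGACGTCA in 0 and in 2.03%. All were searched on both strands, and the matches, including the overlapping pair counted in the Sirt2 window, describe letters and not binding.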

How the data were processed

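RNA of bone marrow neutrophils was measured on 4 arrays, 1 per group. Per the submitters' processing notes the authors used MAS5, of a version not given in the sources used here, and the files hold 1 deposited log2 signal for each probe set and array. On each array the unlogged mean, with 2% trimmed at either end, was 500, so the arrays had been scaled to a common target before deposit, and a change shared by most genes would not show. MAS5 subtracts background on each array separately, so dim probe sets scatter.

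Groups came from the sample titles. Of 45101 probe sets, 34945 had 1 gene symbol in the platform annotation and were no controls, 932 had several and 9211 were not listed; only the first were used. The brightest probe set by mean over 4 arrays stood for a gene. Values below the 60th percentile of all values were set to it. Calls are differences of at least 2-fold. With 1 array per group no test, p-value or standard deviation was computed. The code that makes the calls was checked on simulated data, with differences larger than the call limit added to bright genes. That check does not measure the error of the calls made here.

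Named members were those called in any comparison; per family, those with the highest and lowest mean signal and LPS difference; and the genes next to the limit. Members and the 18 gene lists were chosen with earlier results of these data known. Up to 4 genes per list called in both genotypes were named. Alternatives were quantile, median and poly-A control scaling (12 control probe sets), other limits, other probe set rules and 1.5-fold. Promoter and microRNA sequences are from RefSeq tables. All per-sample columns were used. Python 3.11.15, numpy 2.4.6, pandas 2.3.3, scipy 1.17.1 and matplotlib 3.10.9 were used.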

Additional observations from a re-analysis of the deposited data

Results flagged for a closer look

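In 4 members the LPS difference had opposite signs in the genotypes, with responses at least 1.5-fold apart and all signals above the limit. The responses of Kdm4c differed by 1.04 (0.18 in knockout and -0.86 in wild-type cells), those of Kdm8 by -0.82 (-0.51 in knockout and 0.31 in wild-type cells), those of Sirt3 by 0.61 (0.47 in knockout and -0.14 in wild-type cells) and those of Kmt2a by 0.59 (0.08 in knockout and -0.51 in wild-type cells). A second probe set of Kmt2a gave 0.13 in knockout and -0.26 in wild-type cells. These differences were not tested, since each group has 1 array. The 4 were 8.51% of the 47 members above the limit on all arrays, and 349 of 8156 genes (4.28%) met the same conditions.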

How the results depend on the processing

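No paired analysis was possible because each group has 1 array. Counts of members called moved by more than 1.5 times under these alternatives; the cause was not tested. Members higher with LPS in knockout cells (1 as reported) were 0 on the poly-A control scale, 0 with the mean over probe sets and 6 at 1.5-fold; members lower there (3) were 9 on the poly-A scale, 1 with the limit at the 75th percentile and 7 at 1.5-fold. Members higher in wild-type cells (2) were 4 after quantile normalization, 6 after median scaling, 0 on the poly-A scale, 0 with the mean over probe sets and 9 at 1.5-fold. Members lower in wild-type cells (3) were 1 after quantile normalization, 1 after median scaling, 12 on the poly-A scale, 6 with the limit at the 50th percentile, 8 with no limit and 10 at 1.5-fold. Those called alike in both genotypes (3) were 7 on the poly-A scale, 1 with the mean over probe sets and 10 at 1.5-fold. For knockout against wild type with LPS (1) the counts were 2 after median scaling, 2 with the 50th percentile, 0 with the 75th, 4 with no limit and 6 at 1.5-fold. Without LPS (1) they were 0 after quantile normalization, 0 with the 75th percentile, 2 with no limit and 2 at 1.5-fold. In both states (1) they were 0 after quantile normalization, 0 with the 75th percentile, 2 with no limit and 2 at 1.5-fold. Between the responses (1) they were 0 after median scaling, 2 with the 50th percentile, 4 with no limit, 3 with the mean over probe sets and 8 at 1.5-fold.

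Of 105 values of single called members under the alternatives, 89 stayed called in the same direction and 15 fell short of the call. The other 1 reversed, Kdm4a in wild-type cells at -0.15 with the mean over probe sets. Many of the 89 could not fail. A lower fold limit, a lower or no signal limit, and leaving out probe sets by name ending could not shrink these values. The mean over probe sets could not move Hdac6, Sirt1, Sirt6 and Kdm4c, which have 1 probe set each. Hdac6 in knockout cells and Sirt6 were not measured at the highest signal limit and are not counted there. The 89 thus do not measure how firm the calls are. Over the alternatives, Kdm7a ranged from -2.64 to -1.32 in knockout and from -3.25 to -0.67 in wild-type cells, Kmt5a from 0.37 to 1.42 in knockout and from 0.67 to 1.45 in wild-type cells, Hdac6 from -2.01 to -1.42 in knockout and from -1.69 to -0.28 in wild-type cells, and Sirt6 from -1.32 to -1.09 with LPS and from -1.19 to -0.94 without LPS. Poly-A scaling moved the median LPS difference of all genes by -0.52 in knockout and -0.49 in wild-type cells, so small positive differences after LPS become negative on that scale. Median scaling moved it by 0.23 in wild-type cells, and moved the genotype median with LPS by -0.15. Relative to the median of all genes on the poly-A scale, Kmt5a was higher with LPS by 1.32 in knockout and 1.19 in wild-type cells. Relative to that median under median scaling, Hdac6 in wild-type cells was at -1.10 and the responses of Kdm4c at 1.04 apart, so these calls, lost under median scaling, moved with the common shift. After quantile normalization Hdac6 in wild-type cells was at -0.92 relative to that median, still short of the call. Signals near the limit, as for Sirt6, Hdac6 and Kat2a, are the least certain, and differences below it were not detectable.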

Other observations

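A probe set shared by Kdm6b and the neighbouring symbol 1700064E03Rik, left out because it names both, had log2 signals of 11.07 in knockout and 10.47 in wild-type cells with LPS, against 10.62 in knockout and 10.68 in wild-type cells without LPS. Its LPS difference was 0.46 in knockout and -0.22 in wild-type cells, whereas the reported Kdm6b probe set gave 0.40 in knockout and 0.42 in wild-type cells. Of the further Kdm6b sets, 1 differed by 0.40 in knockout and 0.76 in wild-type cells, and the other by -0.02 in knockout and 0.26 in wild-type cells. These values were chosen after they were seen.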
